A study of Mus musculus with 8 samples.

Results

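Serpins are protease inhibitors that share 1 fold. A typical inhibitory serpin offers its reactive centre loop to a protease as bait, and when the loop is cut the serpin changes shape and traps the protease in a covalent complex. Several members have lost this activity and serve as hormone carriers or as a chaperone. Hepatocytes secrete many of the plasma serpins, which restrain neutrophil elastase, the clotting proteases, plasmin and the complement proteases. The members were taken as all genes whose symbol is Serpin followed by a clade letter from a to i and a digit, which gave 67 of the 34465 genes in the deposited gene table. Clades A and B held 28 members each, clade E held 3, clades F and I held 2 each, and clades C, D, G and H held 1 each. All 67 symbols were found in RefSeq as a symbol or a synonym. Of the 6 that carry a pseudogene suffix, Serpinb10-ps matched Serpinb10, which RefSeq lists as protein-coding.

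The 8 libraries were made from RNA of whole mouse liver, 2 for each of 4 groups. All animals were of the strain 129S4/SvJae/FVB, were 3 months old and carried b-PDGFR fl/fl, floxed alleles of Pdgfrb, a receptor tyrosine kinase of mesenchymal cells. The groups were GFAP-Cre positive livers 72 h after partial hepatectomy, GFAP-Cre negative livers 72 h after partial hepatectomy, GFAP-Cre positive livers after a sham operation and GFAP-Cre negative livers after a sham operation. The labels give the Cre-positive animals as lacking the receptor in hepatic stellate cells, the vitamin A-storing mesenchymal cells of the liver, through Cre driven by the GFAP promoter. Stellate cells are a minority of the cells whose RNA was measured. The comparisons ask how the liver differs after hepatectomy and whether the genotype bears on it. Partial hepatectomy removes part of the organ and the remnant regrows. The labels call the libraries duplicates and do not say whether each came from its own animal, so that p-values measure only the spread between these libraries, which may be technical. In whole tissue, fewer cells of a type and less RNA per cell cannot be told apart.

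Each gene has 1 normalized signal per library. How it was normalized was not stated in the labels, and the read depth is unknown, so no gene is ranked against another by level. Ratios between copies are set side by side only across libraries. Library totals of this signal lay between 8617660 and 11583800. Pdgfrb, the floxed gene, had 63.1 and 99.9 in Cre-positive hepatectomy, 123 and 70.5 in Cre-negative hepatectomy livers, 59.4 and 46.0 in Cre-positive sham and 49.8 and 63.3 in Cre-negative sham livers, and the genotypes overlapped after both operations. The genotype labels could therefore not be checked with it. A value of 0 may stand for an estimate that failed, since Alb, which encodes albumin and is used by every hepatocyte, was listed at 0 in 7 of the 8 libraries. Over all genes Cre-negative hepatectomy replicate 1 stood apart from the rest. In it 12.3% of all isoforms with a sham mean of at least 10 were below 1, against 1.07% to 5.95% in the other libraries, and so were 7 of 61 Serpin isoforms. Of the Serpin isoforms, 6 of 61 were below 1 in Cre-positive sham replicate 2, 5 in Cre-positive hepatectomy replicate 1 and 0 to 2 in the other libraries. The 5 were the isoforms of Serpina1a and Serpina1c, which were also at 0 in Cre-positive sham replicate 2. With these genes set aside, Cre-negative hepatectomy replicate 1 had the most Serpin isoforms below 1.

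Of the 67 members, 42 averaged at least 1 across the 8 libraries, 9 lay below that filter and 16 were listed at 0 in every library. Just outside the filter stood Serpinb9b at a mean of 0.62 and Serpinb1b at 0.918, and just inside it Serpina3b at 1.04 and Serpinb10-ps at 1.09. No member below the filter exceeded 3.72 in any library. Clade A, which holds most secreted serpins, had 24 of 28 members past the filter, and clade B, whose members mostly stay inside the cell, had 8 of 28. The members at 0 throughout were 15 genes of clade B, among them the Serpinb3 copies and most copies related to Serpinb9, and Serpini2. The members together held 2.46% and 3.63% of all signal in Cre-positive hepatectomy, 1.41% and 2.25% in Cre-negative hepatectomy livers, 3.08% and 2.02% in Cre-positive sham and 4.24% and 4.11% in Cre-negative sham livers. In Cre-positive hepatectomy replicate 1 and Cre-positive sham replicate 2 the share lacks Serpina1a and Serpina1c, which were listed at 0. With these 2 genes left out of every library, it was 2.46% and 1.99% in Cre-positive hepatectomy, 0.865% and 1.36% in Cre-negative hepatectomy livers, 1.95% and 2.02% in Cre-positive sham and 2.79% and 2.98% in Cre-negative sham livers.

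In mouse, the single human gene for α1-antitrypsin, the main plasma inhibitor of neutrophil elastase, corresponds to a cluster of near-identical genes, of which Serpina1a to Serpina1e are in the table. Their reactive centre loops are known to differ, and their number is known to vary between inbred strains. Coding sequences of the GENCODE M21 models on GRCm38 chromosome 12 were aligned to see how far reads could tell the copies apart. Of 1239 aligned columns without a gap, 86 (6.94%) differed among the 5 copies, and pairwise identity lay between 96.3% and 98.5%. The differences were unevenly spread: the 60-base window with the most of them held 18, or 30.0% of its columns. That window is shown because it is the stretch that best separates the copies. It covers coding bases 1101 to 1160 (1170 to 1229 in the Serpina1a model), 5′ to 3′ on the coding strand, with capitals at every column that differs among the copies.
Serpina1a: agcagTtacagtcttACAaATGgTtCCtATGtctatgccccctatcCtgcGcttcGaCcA
Serpina1b: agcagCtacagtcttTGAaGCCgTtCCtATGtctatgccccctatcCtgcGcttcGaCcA
Serpina1c: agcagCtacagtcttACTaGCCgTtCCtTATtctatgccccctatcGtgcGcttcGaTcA
Serpina1d: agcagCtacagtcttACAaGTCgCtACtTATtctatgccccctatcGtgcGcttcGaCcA
Serpina1e: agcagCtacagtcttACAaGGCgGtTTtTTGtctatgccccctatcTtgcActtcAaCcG
Serpina1e differed from each of the other copies in 10 to 12 columns of this window, and Serpina1c and Serpina1d differed from each other in 5.

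Outside such windows the copies share long runs. Every 50-base stretch of the annotated transcripts was compared with those of all other members. Serpina1c shared 73.3% of its stretches with another member, mostly Serpina1a, Serpina1a shared 51.4%, Serpina1d 48.0%, Serpina1e 34.6% and Serpina1b 28.2%. Among the Serpina3 copies, which correspond to the human gene for α1-antichymotrypsin, sharing was lower and fell into blocks: Serpina3h shared 21.9%, Serpina3m 19.1% and Serpina3k 14.0%, the last 2 mostly with each other. Of the 41 members past the filter that had transcripts to compare, 13 shared at least 10% of their 50-base stretches and 18 shared none. With 100-base stretches, 5 shared at least 10% and 27 shared none. The labels give neither the read length nor how reads that match several genes were counted, nor whether strand was kept, and values of single Serpina1 and Serpina3 copies are uncertain for that reason.

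**Figure D1:**
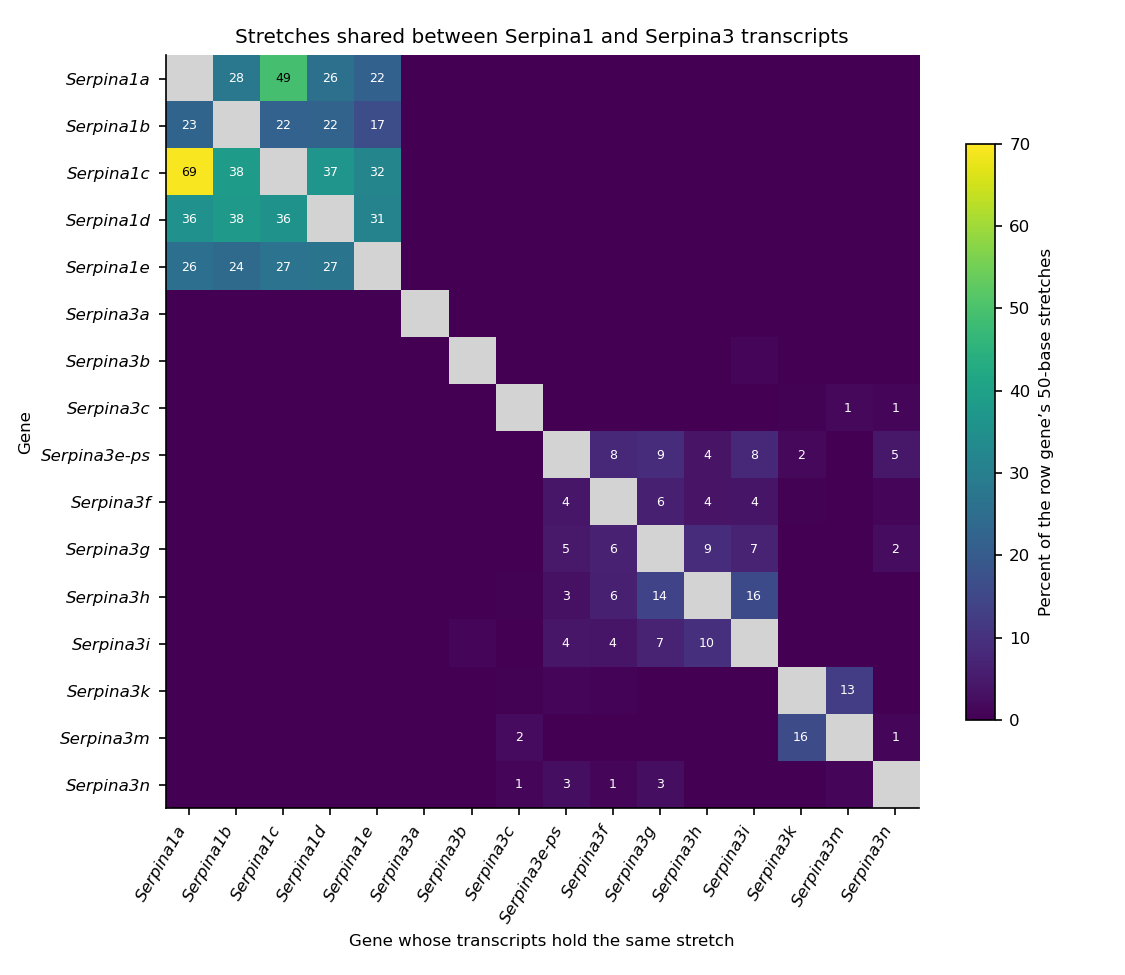
Each cell gives the percent of the row gene's 50-base transcript stretches that also occur in the column gene; values of at least 1 are printed and the diagonal is grey. The Serpina1 copies form 1 block that shares nothing with the Serpina3 genes, and Serpina3k and Serpina3m form a small block of their own.

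Among the Serpina1 copies, 2 had libraries listed at 0. Serpina1a was listed at 0 and 105344 in Cre-positive hepatectomy, at 25710 and 45190 in Cre-negative hepatectomy livers, at 65297 and 0 in Cre-positive sham and at 64327 and 55694 in Cre-negative sham livers. Serpina1c was listed at 0 and 88777 in Cre-positive hepatectomy, at 21983 and 39247 in Cre-negative hepatectomy livers, at 53830 and 0 in Cre-positive sham and at 86840 and 62814 in Cre-negative sham livers. Both zeros fell in the same 2 libraries, Cre-positive hepatectomy replicate 1 and Cre-positive sham replicate 2. In both, Serpina1b, Serpina1d and Serpina1e, which share sequence with the 2 genes at 0, were each higher than in the other replicate. For these 2 genes no fold change is given, and they are left out of every count below, which leaves 40 members tested.

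Serpina1b had 76289 and 68183 in Cre-positive hepatectomy, 19493 and 31811 in Cre-negative hepatectomy livers, 39247 and 52351 in Cre-positive sham and 47675 and 41150 in Cre-negative sham livers. Serpina1d ran in parallel, with 49663 and 43647 in Cre-positive hepatectomy, 11915 and 20625 in Cre-negative hepatectomy livers, 25111 and 31167 in Cre-positive sham and 36904 and 31167 in Cre-negative sham livers. For both copies the Cre-positive hepatectomy libraries were the highest of all 8 and the Cre-negative hepatectomy libraries the lowest. The ratio of Serpina1b to Serpina1d was 1.29 and 1.32 in Cre-negative sham livers and lay between 1.54 and 1.68 in the other libraries.

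Serpina1e did not follow them. It had 19360 and 13242 in Cre-positive hepatectomy, 2212 and 6452 in Cre-negative hepatectomy livers, 9343 and 10867 in Cre-positive sham and 64447 and 67295 in Cre-negative sham livers. The Cre-negative sham pair stood far above all 6 other libraries, and within it the isoform Serpina1e-002 carried the identical value of 58623 in both replicates. The ratio of Serpina1e to Serpina1b was 0.254 and 0.194 in Cre-positive hepatectomy, 0.113 and 0.203 in Cre-negative hepatectomy livers, 0.238 and 0.208 in Cre-positive sham, and 1.35 and 1.64 in Cre-negative sham livers. Exact repeats of a value between libraries are common in these files: 24.0% of the 909 Serpin isoform values above 0 recurred in another library, against 26.9% of all isoform values.

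**Figure D2:**
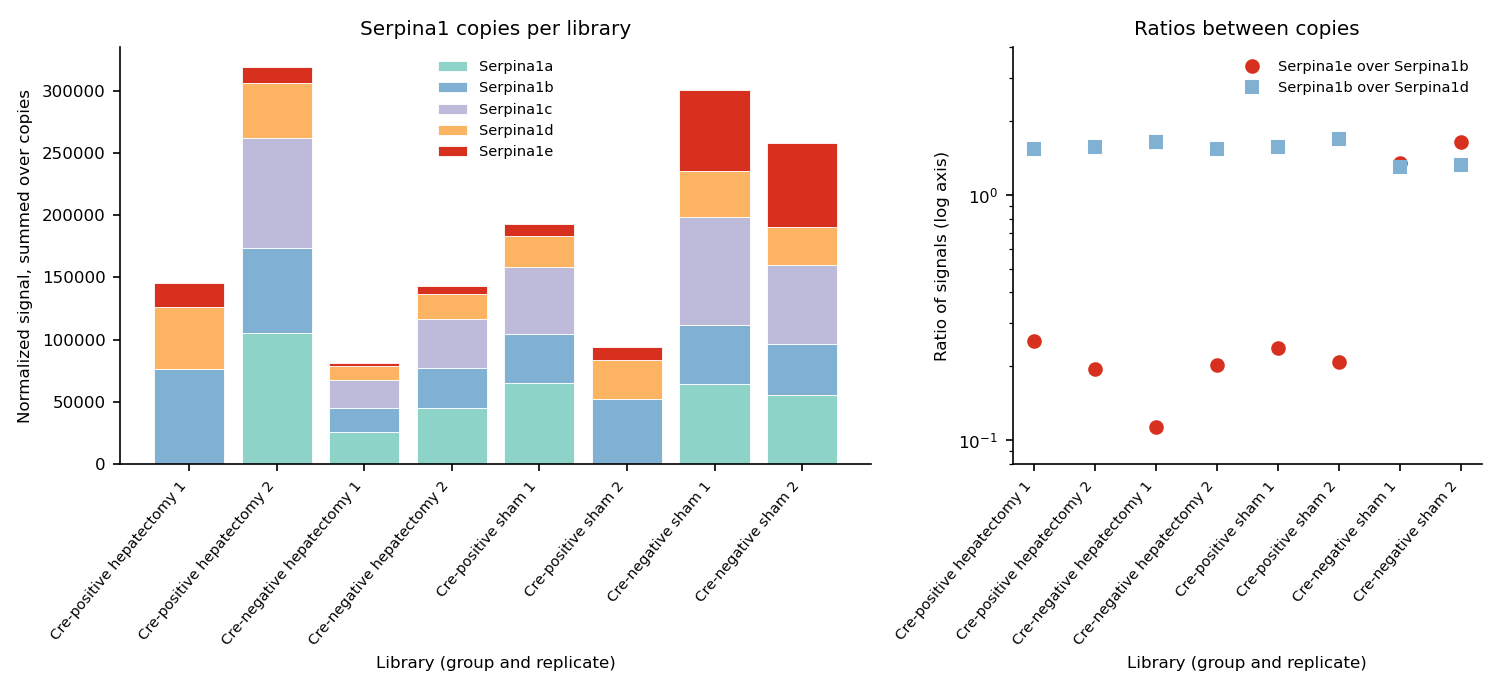
Left, normalized signal of the 5 Serpina1 copies stacked per library; right, the ratio of Serpina1e to Serpina1b (circles) and of Serpina1b to Serpina1d (squares) on a log axis. Serpina1e takes 21.5% and 26.1% of the stack in the Cre-negative sham libraries and between 2.72% and 13.3% elsewhere, and Serpina1a and Serpina1c are absent from Cre-positive hepatectomy replicate 1 and Cre-positive sham replicate 2.

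Log2 fold changes here are differences of log2(signal + 1) from limma, fitted over all 16443 genes past the filter with Benjamini-Hochberg adjustment, a two-sided threshold of 0.05 and n = 2 libraries per group. They understate the change of genes with low signal. For hepatectomy in Cre-negative livers, Serpina1e fell by 4.12 on the log2 scale (SE 0.49), at a limma adjusted p of 0.0244, with a mean of 4332 ± 2998 in hepatectomy and 65871 ± 2014 in sham livers (SD, n = 2 each). The call was lost, at limma adjusted p-values of 0.0675 to 0.167, when either Cre-negative sham replicate, either Cre-positive sham replicate or Cre-negative hepatectomy replicate 1 was left out. The Cre-negative call was also lost without the filter on low values. In Cre-positive livers the Serpina1e difference was 0.67 (SE 0.49). Between genotypes in sham livers it was −2.71 (SE 0.49), with an unadjusted limma p of 0.00074 and an adjusted p of 1. Averaged over the genotypes Serpina1e was called lower after hepatectomy at −1.73 (SE 0.34, limma adjusted p = 0.0398), although the hepatectomy and sham libraries overlapped. That call was lost without any one of the 4 sham libraries (0.147 to 0.158) or Cre-positive hepatectomy replicate 2 (0.0828), with median-of-ratios scaling (0.0506), without the intensity trend (0.0529) and without the filter on low values (0.103).

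Serpina1b and Serpina1d did not pass in any comparison. For hepatectomy against sham, Serpina1b differed by 0.67 (SE 0.33) in Cre-positive and by −0.83 (SE 0.33) in Cre-negative livers, and Serpina1d by 0.73 (SE 0.33) and −1.11 (SE 0.33). The difference between those responses was 1.5 (SE 0.47) for Serpina1b, 1.85 (SE 0.47) for Serpina1d and 4.79 (SE 0.69) for Serpina1e, with limma adjusted p-values of 0.562, 0.479 and 0.21. The copies summed gave 145312 and 319192 in Cre-positive hepatectomy, 81312 and 143325 in Cre-negative hepatectomy livers, 192829 and 94385 in Cre-positive sham and 300193 and 258120 in Cre-negative sham livers. The sums of 145312 and 94385 lack Serpina1a and Serpina1c, which were listed at 0 there, and no test of the sum is given.

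Promoters of Serpina1b and Serpina1e, whose ratio was highest in Cre-negative sham livers, are given from RefSeq on GRCm38.p6, from 250 bases before to 50 after the annotated start. Serpina1b lies at chr12:103738140-103738439 and Serpina1e at chr12:103956848-103957147, both on the minus strand. Capitals mark the matches to 2 of the motifs searched on both strands, GTTAAT (the core letters of the site of the hepatocyte factor HNF1) and TTGCNNAA (C/EBP).
Serpina1b: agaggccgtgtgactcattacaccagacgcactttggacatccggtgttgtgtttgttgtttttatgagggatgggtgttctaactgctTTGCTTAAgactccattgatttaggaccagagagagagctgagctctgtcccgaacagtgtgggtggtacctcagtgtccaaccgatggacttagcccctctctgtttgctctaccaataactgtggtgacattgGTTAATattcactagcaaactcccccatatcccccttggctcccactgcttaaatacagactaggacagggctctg
Serpina1e: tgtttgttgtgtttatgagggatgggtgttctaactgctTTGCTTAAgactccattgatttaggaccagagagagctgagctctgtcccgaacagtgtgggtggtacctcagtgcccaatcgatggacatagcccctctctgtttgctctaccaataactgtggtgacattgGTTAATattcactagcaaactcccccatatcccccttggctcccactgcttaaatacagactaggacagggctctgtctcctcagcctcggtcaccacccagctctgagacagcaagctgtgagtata
Each of the 2 promoters holds 1 match to each motif, and each of the 5 Serpina1 copies holds 1 GTTAAT. Over the 60 promoters of the 51 members with an entry, GTTAAT occurred in 20%, against 7.1% of the 32851 promoters of all genes. C/EBP letters occurred in 28.3% against 10.8%, the STAT letters TTCNNNGAA in 18.3% against 8.3%, and TATAAA in 30.0% against 13.6%. The full palindromic HNF1 motif, which contains those core letters, occurred in none of the Serpin promoters and in 0.00913% of all. A match to letters is a description of these windows, and neighbouring copies share sequence, so that the promoters of a cluster are not independent.

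Serpina3k, contrapsin, a liver-made trypsin inhibitor in mouse, was also called. It had 38407 and 32275 in Cre-positive hepatectomy, 5313 and 13969 in Cre-negative hepatectomy livers, 47675 and 49663 in Cre-positive sham and 65011 and 88777 in Cre-negative sham livers. In each genotype both hepatectomy libraries lay below both sham libraries (23.3% of all genes in Cre-negative and 19.5% in Cre-positive livers did so). In Cre-negative livers it fell by 3.14 on the log2 scale (SE 0.46, limma adjusted p = 0.0356), with means of 9641 ± 6121 in hepatectomy and 76894 ± 16805 in sham livers (SD, n = 2 each). Averaged over genotypes it fell by 1.8 (SE 0.32, limma adjusted p = 0.0290), and in Cre-positive livers alone the difference was −0.47 (SE 0.46). Both calls, in Cre-negative livers and averaged, were lost without the filter on low values. The Cre-negative call was lost with each Cre-negative sham or Cre-positive sham replicate left out and without Cre-negative hepatectomy replicate 1 (limma adjusted p = 0.1 to 0.273), and with median-of-ratios scaling (0.0522) or a fit on the contrast's groups alone (0.0627). The averaged call was lost without any one of the 4 sham libraries or Cre-positive hepatectomy replicate 2 (0.0642 to 0.130).

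Serpina3m, with which it shares sequence, and Serpina3c were not called. Serpina3m had 9208 and 6989 in Cre-positive hepatectomy, 2094 and 4308 in Cre-negative hepatectomy livers, 10993 and 9539 in Cre-positive sham and 8194 and 8780 in Cre-negative sham livers. Serpina3c had 638 and 734 in Cre-positive hepatectomy, 62.8 and 258 in Cre-negative hepatectomy livers, 1173 and 947 in Cre-positive sham and 384 and 480 in Cre-negative sham livers. Both were lower after hepatectomy without overlap in each genotype. The Cre-negative differences were −1.5 (SE 0.36, limma adjusted p = 0.101) and −1.75 (SE 0.58, limma adjusted p = 0.164). Serpina3n, an acute phase inhibitor of granzyme B and elastase, had 7291 and 5487 in Cre-positive hepatectomy, 4830 and 8464 in Cre-negative hepatectomy livers, 11915 and 4983 in Cre-positive sham and 9398 and 14250 in Cre-negative sham livers. Its replicates within a group differed by as much as the groups did.

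The remaining Serpina3 genes were not called. Serpina3g, an inhibitor of lysosomal cathepsins found in leukocytes, had 421 and 209 in Cre-positive hepatectomy, 326 and 197 in Cre-negative hepatectomy livers, 240 and 73.9 in Cre-positive sham and 221 and 196 in Cre-negative sham livers. Serpina3h, which RefSeq lists as a pseudogene, had 2.89 and 2.95 in Cre-positive hepatectomy and 27.0 and 9.11 in Cre-positive sham livers, a difference of −2.10 (SE 0.65, limma adjusted p = 0.229). In Cre-negative livers it had 12.5 and 3.67 in hepatectomy and 5.21 and 5.22 in sham livers, a difference of 0.35 (SE 0.65). Serpina3a, Serpina3b, Serpina3e-ps, Serpina3f and Serpina3i did not pass in any comparison either. All Serpina3 copies summed to 1 row fell by 2.37 on the log2 scale after hepatectomy in Cre-negative livers (SE 0.40, limma adjusted p = 0.0489) and by 1.41 averaged over genotypes (SE 0.28, limma adjusted p = 0.0408). Serpina3k made up 41.6% to 78.8% of that sum, so that this is largely the same measurement.

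Among the other members of clade A, Serpina12, known as vaspin and studied mainly as a product of fat tissue, had 23.7 and 8.07 in Cre-positive hepatectomy, 2.72 and 3.21 in Cre-negative hepatectomy livers, 38.1 and 62.7 in Cre-positive sham and 26.1 and 99.6 in Cre-negative sham livers. All 4 hepatectomy libraries lay below all 4 sham libraries. Averaged over genotypes it fell by 2.73 on the log2 scale (SE 0.51, limma adjusted p = 0.0331). The Cre-negative difference of −3.72 (SE 0.72) did not pass at a limma adjusted p of 0.0608, nor did the Cre-positive one of −1.74 (SE 0.72). The averaged call was lost, at adjusted p-values of 0.0594 to 0.138, without either Cre-negative hepatectomy replicate, either Cre-positive sham replicate, Cre-negative sham replicate 2 or Cre-positive hepatectomy replicate 2. It was also lost without the filter on low values, and with a pseudocount of 10, where the log2 fold change was −1.77 (limma adjusted p = 0.0574).

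The hormone carriers and the inhibitor of factor X were not called in any comparison. Serpina6, corticosteroid-binding globulin, had 2176 and 2050 in Cre-positive hepatectomy, 1460 and 2080 in Cre-negative hepatectomy livers, 2457 and 1775 in Cre-positive sham and 2572 and 1742 in Cre-negative sham livers. Its differences for hepatectomy were 0.02 in Cre-positive and −0.28 in Cre-negative livers, with 95% intervals of −0.702 to 0.734 and −0.998 to 0.437. Serpina10, the protein Z-dependent protease inhibitor, had 3801 and 4084 in Cre-positive hepatectomy, 1657 and 2310 in Cre-negative hepatectomy livers, 3883 and 1912 in Cre-positive sham and 2047 and 2751 in Cre-negative sham livers. Serpina11 lay between 1176 and 2318 in the 8 libraries, with overlap between hepatectomy and sham in both genotypes. Serpina7, the thyroxine-binding globulin encoded on chromosome X, had 146 and 12.9 in Cre-positive hepatectomy, 390 and 143 in Cre-negative hepatectomy livers, 72.7 and 43.7 in Cre-positive sham and 137 and 117 in Cre-negative sham livers. Within the Cre-positive hepatectomy pair of Serpina7, 1 library was above and the other below both Cre-positive sham libraries. Serpina4-ps1 had 622 and 48.1 in Cre-positive hepatectomy, 66.8 and 53.2 in Cre-negative hepatectomy livers, 1101 and 479 in Cre-positive sham and 617 and 361 in Cre-negative sham livers, and its Cre-negative difference of −2.96 (SE 1.06) did not pass.

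**Figure D3:**
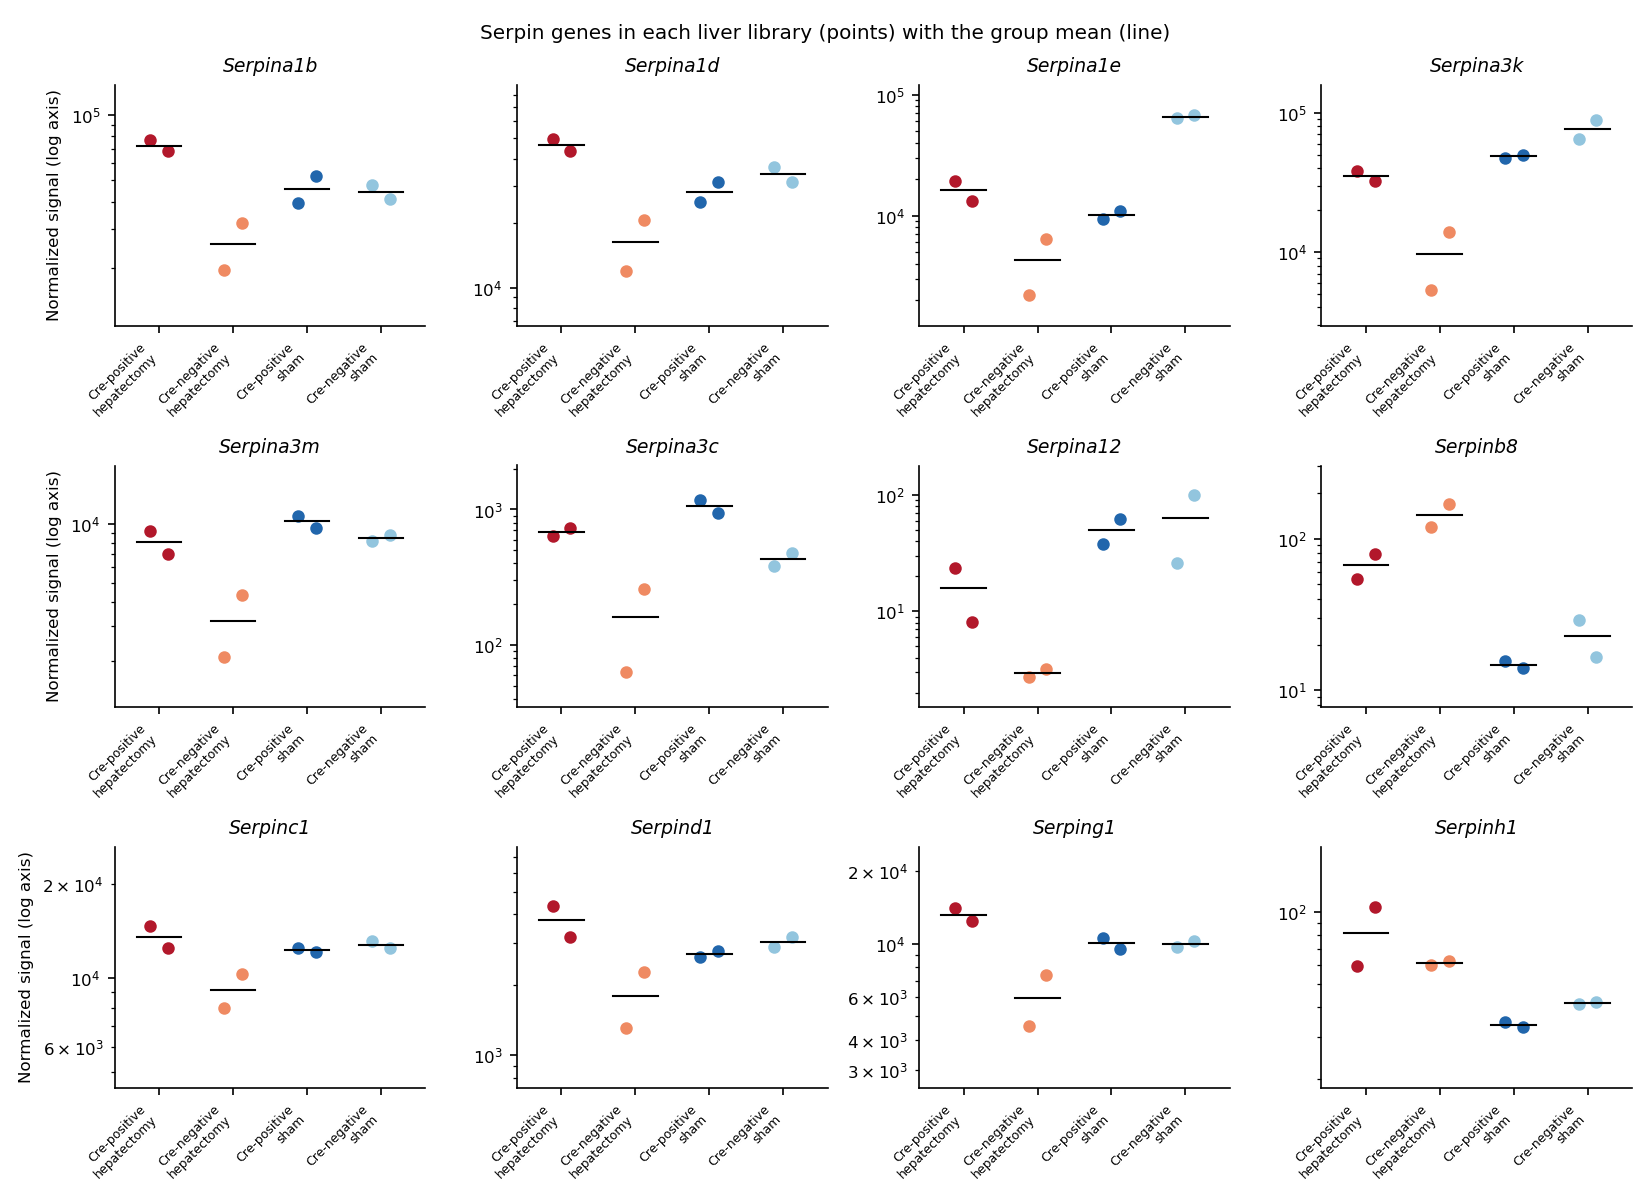
Normalized signal of 12 Serpin genes on log axes; each point is 1 library, the line is the group mean, and groups run from Cre-positive hepatectomy to Cre-negative sham. Serpina1e is high in the Cre-negative sham pair alone, Serpina3k is lowest in Cre-negative hepatectomy livers, and all 4 hepatectomy libraries of Serpinb8 lie above all 4 sham libraries.

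Clade B gave the one member called higher. Serpinb8, an intracellular serpin that inhibits furin in human, had 54.4 and 78.7 in Cre-positive hepatectomy, 119 and 168 in Cre-negative hepatectomy livers, 15.6 and 14.0 in Cre-positive sham and 29.1 and 16.6 in Cre-negative sham livers. No hepatectomy library overlapped any sham library. Averaged over genotypes it rose by 2.35 on the log2 scale (SE 0.27, limma adjusted p = 0.00656), and this call held under all 16 other settings and left-out libraries tried. In Cre-negative livers alone it rose by 2.63 (SE 0.39, limma adjusted p = 0.0360), with means of 144 ± 34.7 in hepatectomy and 22.8 ± 8.83 in sham livers (SD, n = 2 each). That call was lost without either Cre-negative hepatectomy, Cre-negative sham or Cre-positive sham replicate (0.0797 to 0.280), and with median-of-ratios scaling (0.0522) or quantile normalization (0.0640). The Cre-negative Serpinb8 call was also lost without the filter on low values. In Cre-positive livers the difference of 2.08 (SE 0.39) did not pass at a limma adjusted p of 0.0691. The difference between the responses of the genotypes, −0.56 (SE 0.55), was not called either. Of 4 erythroid markers, 3 had positive differences in both genotypes. Their sum, carried by the globin genes Hba-a1 and Hbb-b1, was 6718 and 34114 in Cre-positive hepatectomy, 11855 and 18116 in Cre-negative hepatectomy livers, 3547 and 6163 in Cre-positive sham and 5719 and 5640 in Cre-negative sham livers. Alas2, which encodes the erythroid enzyme that begins heme synthesis, had 835 and 1808 in Cre-positive hepatectomy, 696 and 939 in Cre-negative hepatectomy livers, 1761 and 1947 in Cre-positive sham and 1990 and 1563 in Cre-negative sham livers. The part of these cells in the Serpinb8 values was not tested.

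The other members of clade B were not called. Serpinb6a, an inhibitor of cathepsin G, had 151 and 116 in Cre-positive hepatectomy, 209 and 146 in Cre-negative hepatectomy livers, 120 and 143 in Cre-positive sham and 115 and 162 in Cre-negative sham livers. Serpinb6b had 7.86 and 6.28 in Cre-positive hepatectomy, 16.6 and 23.3 in Cre-negative hepatectomy livers, 14.0 and 10.2 in Cre-positive sham and 10.8 and 16.6 in Cre-negative sham livers, with opposite shifts in the genotypes that did not pass. Serpinb9, the granzyme B inhibitor that shields cytotoxic cells from their own enzyme, lay between 20.8 and 42.8 with overlapping groups. Serpinb1a, an inhibitor of neutrophil proteases, Serpinb2, a plasminogen activator inhibitor, Serpinb7 and Serpinb10-ps did not pass in any comparison. Serpinb2 had 2.76 and 4.14 in Cre-positive sham and 26.7 and 9.12 in Cre-negative sham livers, a difference of −1.93 (SE 0.80, limma adjusted p = 1).

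The clotting and complement serpins of clades C, D and G were lowest in the same group. Serpinc1, antithrombin, had 14646 and 12440 in Cre-positive hepatectomy, 7994 and 10308 in Cre-negative hepatectomy livers, 12440 and 12065 in Cre-positive sham and 13134 and 12440 in Cre-negative sham livers. Serpind1, heparin cofactor II, had 4327 and 3208 in Cre-positive hepatectomy, 1303 and 2265 in Cre-negative hepatectomy livers, 2621 and 2784 in Cre-positive sham and 2902 and 3182 in Cre-negative sham livers. Serping1, the C1 inhibitor that blocks the first complement proteases and plasma kallikrein, had 14016 and 12354 in Cre-positive hepatectomy, 4561 and 7389 in Cre-negative hepatectomy livers, 10578 and 9516 in Cre-positive sham and 9684 and 10257 in Cre-negative sham livers. In all 3 genes both Cre-negative hepatectomy libraries were the lowest of the 8, and for Serpind1 and Serping1 both Cre-positive hepatectomy libraries were the highest. Between genotypes after hepatectomy the differences were 0.57 (SE 0.24) for Serpinc1, 1.12 (SE 0.31) for Serpind1 and 1.18 (SE 0.29) for Serping1, with limma adjusted p-values of 0.272, 0.16 and 0.136.

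In clade F, Serpinf2, the α2-antiplasmin that blocks plasmin, had 9156 and 13287 in Cre-positive hepatectomy, 5282 and 9924 in Cre-negative hepatectomy livers, 10027 and 7969 in Cre-positive sham and 8606 and 9625 in Cre-negative sham livers, and hepatectomy and sham overlapped in both genotypes. Serpinf1, pigment epithelium-derived factor, which does not inhibit proteases, had 3438 and 5606 in Cre-positive hepatectomy, 2776 and 3897 in Cre-negative hepatectomy livers, 5607 and 5898 in Cre-positive sham and 6095 and 6019 in Cre-negative sham livers. All 4 hepatectomy libraries of Serpinf1 lay below all 4 sham libraries, but only through a near tie. Cre-positive hepatectomy replicate 2 had 5606.24 and Cre-positive sham replicate 1 had 5606.86. The averaged difference of −0.64 (SE 0.21, limma adjusted p = 0.142) did not pass. Isoforms within a gene differed in their values, which are given without a test. Serpinf2-002 had 1378 and 1867 in Cre-positive hepatectomy, 7.18 and 80 in Cre-negative hepatectomy livers, 1717 and 1262 in Cre-positive sham and 1420 and 1453 in Cre-negative sham livers, while Serpinf2-001 was highest in the Cre-negative hepatectomy pair, at 2502 and 2699. For Serpind1, isoform 001 had 67.8 and 487 in Cre-negative hepatectomy against 1387 and 1437 in Cre-negative sham livers, and isoform 002 had 1235 and 1778 against 1515 and 1744. The loss of isoform values in Cre-negative hepatectomy replicate 1 given above touches these values, and its part in them was not tested.

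Serpine2 of clade E, protease nexin, an inhibitor of thrombin and urokinase, had 18.3 and 55.7 in Cre-positive hepatectomy, 32.6 and 27.0 in Cre-negative hepatectomy livers, 59.1 and 113 in Cre-positive sham and 45.9 and 85.9 in Cre-negative sham livers, lower after hepatectomy in each genotype but not called (−1.32 and −1.06, SE 0.59). Serpine3 had 0.131 and 0 in Cre-positive hepatectomy, 2.96 and 3.61 in Cre-negative hepatectomy livers, 0.376 and 0.475 in Cre-positive sham and 0.414 and 1.15 in Cre-negative sham livers. It passed the filter through the Cre-negative hepatectomy pair.

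Serpinh1, the collagen chaperone of the endoplasmic reticulum and no protease inhibitor, had 59.6 and 104.7 in Cre-positive hepatectomy, 59.9 and 62.5 in Cre-negative hepatectomy livers, 34.6 and 33.2 in Cre-positive sham and 41.3 and 42.2 in Cre-negative sham livers. All 4 hepatectomy libraries lay above all 4 sham libraries, and the averaged difference of 0.87 (SE 0.24) did not pass at a limma adjusted p of 0.0903. Of 11 collagen genes listed as its clients, 10 had positive averaged differences and 5 rose with limma: Col1a1, Col3a1, Col4a1, Col4a2 and Col5a2. Of all genes 57.7% had positive averaged differences and 3.64% were called higher. The median of the 11 was 0.94, beside 0.12 over all genes. Col1a1 had 482 and 1051 in Cre-positive hepatectomy, 317 and 358 in Cre-negative hepatectomy livers, 89.6 and 248 in Cre-positive sham and 68.8 and 61.6 in Cre-negative sham livers, an averaged rise of 2.30 (limma adjusted p = 0.022). Col3a1 had 1856 and 2007 in Cre-positive hepatectomy, 727 and 1144 in Cre-negative hepatectomy livers, 529 and 796 in Cre-positive sham and 535 and 587 in Cre-negative sham livers. Mesothelial markers, from another cell type that makes collagen, had a median difference of −0.54 in Cre-positive livers, 0.67 in Cre-negative livers and 0.01 averaged, and their part in these values was not tested. Msln, the mesothelin gene, had 34.9 and 60.9 in Cre-positive hepatectomy, 122 and 235 in Cre-negative hepatectomy livers, 94.9 and 95.2 in Cre-positive sham and 70.3 and 137 in Cre-negative sham livers. In Cre-positive livers 1 of the 4, Krt8, was positive. Krt8 is also a keratin of hepatocytes, so it is not specific to mesothelium here, and the medians include it. Krt8 had 4500 and 4123 in Cre-positive hepatectomy, 4001 and 2504 in Cre-negative hepatectomy livers, 1834 and 1884 in Cre-positive sham and 2761 and 1654 in Cre-negative sham livers. Serpini1, neuroserpin, an inhibitor of tissue plasminogen activator in the nervous system, lay between 0.943 and 8.02 and did not pass.

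For hepatectomy in Cre-negative livers, 3 of the 40 members tested were called, 1 higher (Serpinb8) and 2 lower (Serpina1e and Serpina3k). Of all 16443 genes 1.11% were called, 1.01% higher and 0.103% lower. At an unadjusted p under 0.05 stood 15 members, 4 higher and 11 lower, beside 21.3% of all genes. Averaged over genotypes 4 members were called, 1 higher and 3 lower, where 4.49% of all genes were called, 3.64% higher and 0.845% lower, and 11 members had an unadjusted p under 0.05, beside 23.8% of all genes. In Cre-positive livers limma called 0 members, and 4 had an unadjusted p under 0.05, beside 0.943% (0.845% higher and 0.0973% lower) and 13.5% of all genes. Without Cre-positive hepatectomy replicate 1, limma called 3 members there, and 3507 genes in all in place of 155. The genotype comparisons gave 0 calls in sham livers, in hepatectomy livers and averaged, with 2, 14 and 10 members at an unadjusted p under 0.05. Among all genes 0.00608%, 0.0182% and 0.0122% were called, and 0.888%, 18.3% and 8.53% had such an unadjusted p. The difference between the responses gave 0 calls, with 8 members at an unadjusted p under 0.05, beside 0.0122% and 8.09% of all genes.

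Counts of members whose groups did not overlap are set beside the share of all genes that did the same. After hepatectomy in Cre-positive livers 11 members lay wholly above sham and 11 wholly below, beside 23.9% and 19.5% of all genes. In Cre-negative livers 9 lay above and 14 below, beside 39.7% and 23.3%. Some of those above passed the filter only through hepatectomy libraries, and their place is not a result. They were Serpina3a and Serpinb10-ps in Cre-positive livers, and Serpina3a, Serpina3b, Serpinb7 and Serpine3 in Cre-negative livers. Over all 8 libraries 3 lay above (Serpina3a, Serpinb8 and Serpinh1) and 3 below, beside 11.2% and 6.2%. Between genotypes 5 lay above and 11 below in sham livers, beside 12.1% and 19.4%, and 11 above and 8 below in hepatectomy livers, beside 14.2% and 26.3%. Serpina3c alone lay above in the Cre-positive libraries of both operations together and 0 lay below, beside 0.578% and 1.9% of all genes. Within each genotype in turn, 6 members were lower after hepatectomy in both, namely Serpina12, Serpina3c, Serpina3k, Serpina3m, Serpine2 and Serpinf1, beside 7.91% of all genes. Serpinf1 is among these, and among the 3 below over all 8 libraries, only through the near tie given above. The 3 that were higher in both were Serpina3a, Serpinb8 and Serpinh1, beside 14% of all genes. Serpina3a passed the filter only through its hepatectomy libraries, and its place among these and in the count over all 8 libraries is not a result. A further 5 were higher in Cre-positive and lower in Cre-negative livers, beside 2.54%, and 2 showed the reverse, beside 4.31%. Of these 2, Serpine3 passed the filter only through the Cre-negative hepatectomy libraries in which it was high. The 5 include Serpina1b, Serpina1d and Serpina1e, and the 6 lower in both include Serpina3k and Serpina3m. Such copies share sequence and may share reads, so that they do not count as independent members.

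The signs were split evenly over the family. In Cre-negative livers 20 of the 40 members had positive and 20 negative differences after hepatectomy, with a median of −0.05 beside 0.21 over all genes, and in Cre-positive livers 21 were positive and 19 negative, with medians of 0.01 and 0.02. Of 22 members of clade A, 12 were negative in Cre-negative livers (median −0.28), and of 8 members of clade B, 6 were positive (median 0.58). Of these 6, Serpinb7 and Serpinb10-ps passed the filter only through hepatectomy libraries, so that their signs are not a result. The same holds for Serpina3a, Serpina3b and Serpine3 among the 20 positive members. Of all genes 61.2% were positive, and of the 9641 genes with a mean below 100, 6955 were. Of the 14 members with a mean of at least 1000, all of them genes of clades A, C, D, F and G, 13 had negative differences after hepatectomy in Cre-negative livers and 5 in Cre-positive livers. Their medians were −0.83 and 0.22, beside −0.31 and −0.05 over all 1186 genes of that level, of which 65.1% and 54.0% were negative. Between genotypes after hepatectomy 13 of these 14 were positive, with a median of 1.06 beside 0.14 for all genes of that level. These hepatectomy and genotype values share the Cre-negative hepatectomy libraries. The 14 include Serpina1b, Serpina1d and Serpina1e, and Serpina3k and Serpina3m, copies that share sequence and do not count as independent members.

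**Figure D4:**
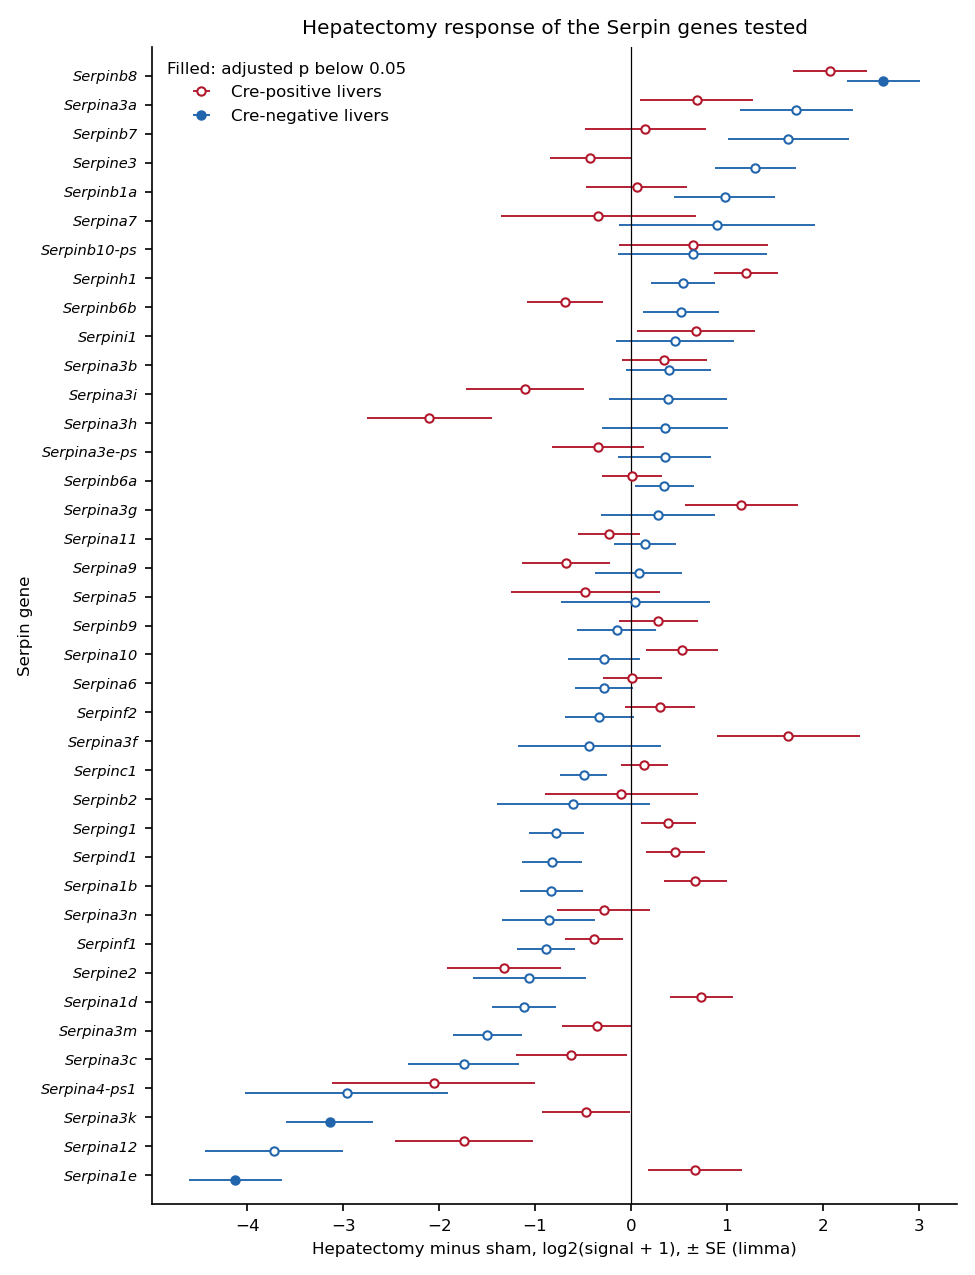
Difference of log2(signal + 1) between hepatectomy and sham for the members reported and tested, in Cre-positive (red) and Cre-negative (blue) livers, with the limma SE as bars, ordered by the Cre-negative value. Filled points have an adjusted p below 0.05: Serpinb8 at the top and Serpina3k and Serpina1e near the bottom, all in Cre-negative livers.

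The scale of the libraries bears on those signs. Median-of-ratios scaling moved the median of all genes in the Cre-negative comparison to −0.002 (0.21 as deposited), and quantile normalization to −0.05. The 14 members of high signal were then negative in 14 and 13 of 14 cases, with medians of −1.05 and −0.56. Without Cre-negative hepatectomy replicate 1 they were negative in 12 of 14 with a median of −0.44, and without Cre-negative hepatectomy replicate 2 in 14 of 14 with a median of −1.16. Between genotypes after hepatectomy the count of positive members lay between 12 and 14 of 14 under the same scalings and with each library left out, and the median between 0.74 and 1.38.

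The sum of the hepatocyte markers other than Alb was, like Serpina1b, highest in Cre-positive and lowest in Cre-negative hepatectomy livers. Of these markers limma called 0 for hepatectomy in either genotype, with 1 at an unadjusted p under 0.05 in each. The summed signal of the 6 hepatocyte markers other than Alb was 618643 and 405956 in Cre-positive hepatectomy, 177125 and 311974 in Cre-negative hepatectomy livers, 372043 and 379250 in Cre-positive sham and 345019 and 353723 in Cre-negative sham livers. The single markers did not move together. In Cre-positive hepatectomy replicate 2, Ahsg (192773), Apoa1 (82420) and Ttr (47592) lay above all sham libraries. In the same library Fgb (52054), Cps1 (28876) and Apob (2241) lay below all sham libraries. The median difference of the 6 markers for hepatectomy was 0.30 in Cre-positive and −0.59 in Cre-negative livers, and 1 of the 6 was positive in Cre-negative livers. Stellate cell markers summed to 2125 and 1316 in Cre-positive hepatectomy, 1963 and 1813 in Cre-negative hepatectomy livers, 2923 and 2210 in Cre-positive sham and 2760 and 3082 in Cre-negative sham livers, with none of the 8 markers at 0. Neutrophil markers, whose cells make the proteases that Serpina1 and Serpinb1a inhibit, summed to 437 and 333 in Cre-positive hepatectomy, 418 and 223 in Cre-negative hepatectomy livers, 476 and 104 in Cre-positive sham and 604 and 395 in Cre-negative sham livers. That sum is carried by S100a8 and S100a9, and the median difference of the 6 neutrophil markers tested was 0.83 in Cre-positive livers, 0.93 in Cre-negative livers and 0.94 averaged. Of these markers Elane, Ngp, Camp and Mpo had low signal, and Mpo passed the filter only through hepatectomy libraries. Keratinocyte and exocrine pancreas markers, from tissues that use other clade B members and Serpini2, summed to 36.8 and 45.1 at most. The part of any of these cell types in the serpin values was not tested.

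**Figure D5:**
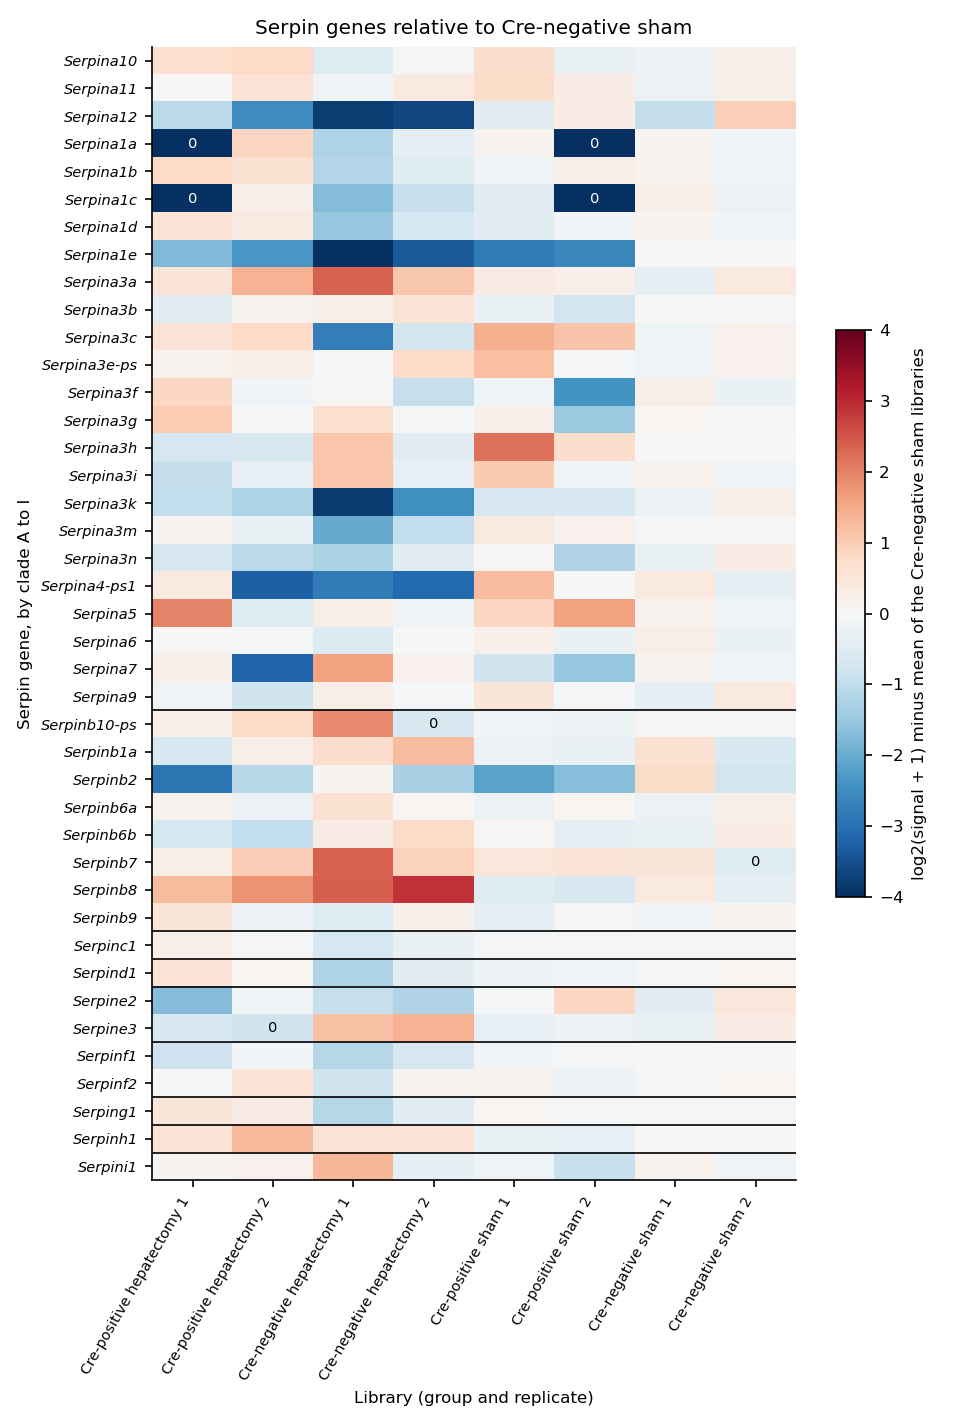
Colour gives log2(signal + 1) in each library minus the mean of the Cre-negative sham libraries for the members reported that passed the filter, ordered by clade with lines between clades; 0 marks a value listed at 0, and the scale ends at 4 in both directions. Serpinb8 is red across all 4 hepatectomy libraries, Serpina12, Serpina1e and Serpina3k are blue in the Cre-negative hepatectomy pair, and Serpina1e is blue in every library outside Cre-negative sham.

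The proteases and partners that serpins act with were followed in the same fit. Of 29 listed target proteases, 26 were tested. In Cre-negative livers 0 were called after hepatectomy and 10 of the 26 had an unadjusted limma p under 0.05, beside 21.3% of all genes, and their median was −0.15 beside 0.21 over all genes. Averaged over genotypes 1 rose and 1 fell, beside 3.64% and 0.845% of all genes. Prtn3, the neutrophil protease proteinase 3, had 62.6 and 412 in Cre-positive hepatectomy, 125 and 152 in Cre-negative hepatectomy livers, 19.3 and 4.01 in Cre-positive sham and 8.91 and 21.4 in Cre-negative sham livers, a rise of 3.61 (SE 0.69, limma adjusted p = 0.0352). Masp1, a protease of the lectin pathway of complement that antithrombin and the C1 inhibitor block, had 1076 and 834 in Cre-positive hepatectomy, 599 and 652 in Cre-negative hepatectomy livers, 1316 and 1398 in Cre-positive sham and 1239 and 1509 in Cre-negative sham livers, and fell by 0.82 (SE 0.16, limma adjusted p = 0.0403). All hepatectomy libraries of both genes lay on 1 side of all sham libraries. The neutrophil markers given above had positive medians in the same comparisons, and 4 of the 6 tested were positive averaged over genotypes, beside 57.7% of all genes. These 4, Elane, Ngp, Camp and Mpo, had low signal. Mpo lay between 0.508 and 1.06 in sham livers and passed the filter only through hepatectomy libraries, so that its sign is not a result. The sum of the neutrophil markers, carried by S100a8 and S100a9, was 418 and 223 in Cre-negative hepatectomy against 604 and 395 in Cre-negative sham livers. In Cre-positive livers that sum was 437 and 333 after hepatectomy against 476 and 104 after sham. The part of neutrophils in the Prtn3 values was not tested.

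F2 and Plg encode zymogens that the liver secretes. F2, prothrombin, the target of antithrombin and heparin cofactor II, had 23567 and 23301 in Cre-positive hepatectomy, 12817 and 18122 in Cre-negative hepatectomy livers, 27397 and 25797 in Cre-positive sham and 26405 and 26174 in Cre-negative sham livers. Plg, plasminogen, whose active form α2-antiplasmin blocks, had 44644 and 40414 in Cre-positive hepatectomy, 14989 and 28910 in Cre-negative hepatectomy livers, 44115 and 43327 in Cre-positive sham and 38198 and 43327 in Cre-negative sham livers. For both genes the Cre-negative hepatectomy pair was the lowest, and neither was called (limma adjusted p = 0.164 and 0.184 for hepatectomy in Cre-negative livers).

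Of 15 cofactors, receptors and secretion factors limma called 0 in any of the 7 comparisons. After hepatectomy 4 of the 15 had an unadjusted p under 0.05 in Cre-positive and 3 in Cre-negative livers, beside 13.5% and 21.3% of all genes. Their median difference was 0.22 in Cre-positive and −0.18 in Cre-negative livers, beside 0.02 and 0.21 over all genes. Between genotypes after hepatectomy 8 of the 15 had an unadjusted limma p under 0.05, beside 18.3% of all genes. Their median there was 0.49, beside −0.23 over all genes. Vtn, vitronectin, an adhesive plasma protein made by hepatocytes, had 28803 and 30528 in Cre-positive hepatectomy, 14704 and 22125 in Cre-negative hepatectomy livers, 29525 and 23127 in Cre-positive sham and 22318 and 27470 in Cre-negative sham livers. Ttr, transthyretin, which carries thyroxine beside the Serpina7 product and is also among the hepatocyte markers, had 55355 and 47592 in Cre-positive hepatectomy, 33956 and 47592 in Cre-negative hepatectomy livers, 27636 and 38755 in Cre-positive sham and 35679 and 29341 in Cre-negative sham livers. Agt, angiotensinogen, a serpin by fold that its symbol leaves outside the family as defined here and that stands in the list of cofactors, had 2031 and 3414 in Cre-positive hepatectomy, 3984 and 3915 in Cre-negative hepatectomy livers, 3216 and 3166 in Cre-positive sham and 3719 and 3482 in Cre-negative sham livers. Its Cre-negative hepatectomy libraries were the highest of the 8.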

How the data were processed

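RNA of whole mouse liver was sequenced in 8 libraries. The authors deposited gene and isoform values as a normalized signal. The submitters' processing notes name TopHat, Cufflinks, mm9 and NCBIM37, without versions, and do not describe the normalization. The signal is neither a count nor FPKM, depth is unknown, so no counting interval is given and count tests were not run. The test planned for such values, limma (version 3.58.1, R version 4.3.3) fitted to log2(signal + 1), was kept: genes with a mean of at least 1 (16443), 1 mean for each of 4 groups, an intensity trend, residual degrees of freedom 4 and prior 3.25, 7 contrasts, Benjamini-Hochberg over all genes at 0.05. It was tested on simulated data. No fold change is given for a gene that reaches 100 in some library and is 0 in another. Members and gene lists were chosen with earlier results of these data known. Values per library are given for called members, members with such zeros and up to 4 members a clade of highest mean; further members and isoforms were added after their values were seen. Transcripts (GENCODE M21) were aligned with mafft 7.526. Replicates carry numbers in accession order. Values of 1 member are not reported here, and the counts include it.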

Additional observations from a re-analysis of the deposited data

Results flagged for a closer look

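Members whose hepatectomy libraries all lay on opposite sides of sham in the 2 genotypes are given with the limma difference of the responses on the log2 scale, Cre-positive minus Cre-negative; none was called. Among all genes, 2.54% were higher in Cre-positive and lower in Cre-negative livers and 4.31% the reverse. In the first direction the difference was 1.5 for Serpina1b, 1.85 for Serpina1d, 4.79 for Serpina1e, 1.29 for Serpind1 and 1.17 for Serping1. In the reverse direction it was −1.21 for Serpinb6b and −1.72 for Serpine3, which passed the filter on low values only through the Cre-negative hepatectomy libraries in which it was high, so that nothing is read from its pattern. The limma adjusted p-values lay between 0.21 for Serpina1e and 0.644 for Serpinb6b. Serpina1b, Serpina1d and Serpina1e share sequence and may share reads, so that they do not count as independent members. With median-of-ratios scaling Serpind1 and Serpinb6b no longer showed the pattern, and with quantile normalization Serpinb6b and Serpine3 did not.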

How the results depend on the processing

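For hepatectomy in Cre-negative livers 3 members were called as deposited, 1 with median-of-ratios scaling (0 higher, 1 lower), 0 without the filter on low values and 0 to 5 with 1 library left out (5 without either Cre-positive hepatectomy replicate, and 0 without Cre-negative hepatectomy replicate 1 or any sham library). The calls over all genes moved alike: 183 as deposited, 1698 and 1641 in the settings with 5, and 0 to 2 in the left-out settings with 0. Averaged over genotypes 4 were called, 1 without the filter and 1 to 7 with 1 library left out (7 without Cre-positive hepatectomy replicate 1, where 5408 genes were called in all in place of 738). With 1 library left out the count was 0 to 3 for hepatectomy in Cre-positive livers, 0 to 3 for genotype after hepatectomy (3 without Cre-negative hepatectomy replicate 2, where 90 genes were called in all, and 2 without Cre-positive hepatectomy replicate 1, where 2217 were), 0 to 1 for genotype averaged and 0 to 1 for the difference of responses. A left-out library leaves its group with 1 sample, assumed to vary like the others. The cause of these shifts was not tested. No fold change of a called member turned its sign in any setting tried. The signs of the members of high signal under scaling and left-out libraries were examined after seeing the data. No paired analysis was possible because the labels give the groups no shared replicate numbers. With the depth unknown, the precision of members of low signal, such as Serpine3, could be judged only from the spread between 2 libraries.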

Other observations

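Among members with exact repeats of a value between libraries, Serpinc1 carried 1 identical value in 3 of the 8 libraries. Among Serpin isoform values above 1000, 28.1% of 160 recurred in another library, against 18.9% of 9305 such values over all isoforms.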
